A study of Mus musculus with 4 samples.

Results

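A set of 9 genes linked to injury and axon regrowth in sensory neurons was followed through single cell RNA-seq of mouse dorsal root ganglia (DRG), out of 33456 genes in the deposited tables. They are the transcription factors *Atf3*, *Jun* and *Sox11*, the growth-associated genes *Sprr1a* and *Gap43*, the kinesin *Kif22*, the membrane proteins *Gpr151* and *Sema6a*, and the protease inhibitor *Serpinb1a*. The genes were chosen by name, and their levels in neurons, control against injury, were among the values that chose them. Those levels are therefore given as a description. Where the fit over all genes in neurons is counted, its calls on these 9 genes are no evidence about them, and tests bear only on the other cell types and on other genes.

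All 9 lie on the minus strand of GRCm38: *Atf3* at chr1:191170296-191218039, *Sprr1a* at chr3:92483952-92485895, *Jun* at chr4:95049034-95052222, *Kif22* at chr7:127027729-127042471, *Sox11* at chr12:27334264-27342574, *Serpinb1a* at chr13:32842092-32851185, *Gap43* at chr16:42248442-42340651, and *Gpr151* and *Sema6a* on chromosome 18.

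Whole ganglia of C57BL/6 mice aged 8 to 12 weeks were dissociated with papain and collagenase, sorted by flow cytometry for live cells and captured in droplets with a 3′ kit. A unique molecular identifier (UMI) marks each captured RNA molecule, and reads of 1 droplet, taken as 1 cell, share a barcode. Control libraries came from uninjured ganglia and injury libraries from ganglia taken 3 days after sciatic nerve crush, with 2 libraries per condition. The sample labels name L4 ganglia and the methods L4 and L5, no transgene is named for either group, and each batch of cells was a pool of 5 mice. The labels' treatment note names the crush for all 4 libraries, whereas titles and source names call 2 of them uninjured, and the groups follow the titles. The libraries held 1384 and 1788 barcodes in control and 2509 and 1294 in injury (replicates 1 and 2), with 5585909 to 11210875 UMIs each, and 1 to 6 barcode sequences were shared between any pair of libraries, none of them by neurons.

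Peripheral sensory neurons can regrow an axon after a crush of the nerve, which distinguishes them from most neurons of the central nervous system. The cut axon signals back to the cell body through kinases of the JNK pathway, and transcription factors such as JUN and ATF3, which belong to the same family of leucine zipper proteins that bind AP-1 and CRE motifs, take part in a programme of gene expression that includes neuropeptides, cytoskeletal proteins and growth cone proteins. GAP43 is the classical growth cone protein of this programme. Several of these genes have other duties in other cells: *Jun* and *Atf3* are also immediate early genes that respond within minutes to stress and tissue dissociation, and SERPINB1A inhibits the serine proteases of neutrophil granules.

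Neuron-like barcodes were defined by at least 1 UMI of *Isl1*, a transcription factor of sensory neurons, and at least 10 UMIs of *Snap25*, *Stmn2* and *Tubb3* together. This gave 341 of 6975 barcodes, of which control replicate 1 held 25, control replicate 2 held 187, injury replicate 1 held 36 and injury replicate 2 held 93. Their median depth was 34046 and 18381 UMIs in control and 30836 and 27729 in injury. A list of 12 neuron markers that the gate did not use summed to 9466 to 9728 CPM (UMIs per 1000000 UMIs of the summed barcodes) in the 4 libraries, against 0 to 285 CPM in the other gated types, so the label held. All 7 satellite glial markers were also found in these barcodes, led by *Fabp7* and *Aldoc*, and summed to 171 and 584 CPM in control and 230 and 455 CPM in injury (replicates 1 and 2). They followed the replicate number and not the condition. At 5000 UMIs, 3 or more satellite glial markers were found in 0 of 25 and 13 of 183 control and in 1 of 35 and 6 of 92 injury barcodes. No doublet caller was run, and none of the 9 genes is a marker of any gate. The limits on UMIs, genes and mitochondrial share per cell in the methods would keep 3 and 42 control and 3 and 17 injury barcodes, so all neuron-like barcodes were used.

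Among the transcription factors, *Atf3* and *Sox11* were higher in both injury libraries and *Jun* was not. *Atf3* is a stress-induced factor widely used as a marker of injured sensory neurons. Its level in neuron-like barcodes was 94.1 and 73.8 CPM in control (replicates 1 and 2, an order kept from here on) and 952 and 328 CPM in injury. Both injury libraries lay above both control libraries, and the means were 84.0 ± 14.3 and 640 ± 441 CPM (SD, n = 2 libraries each), a ratio of 7.62 with a wide spread in injury. *Sox11*, a factor of developing neurons that returns during regrowth, was at 66.7 and 70.8 CPM in control and at 532 and 256 CPM in injury. The control libraries were close to each other, the injury libraries were both higher, and the ratio of the means was 5.73.

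*Jun* encodes the best known component of AP-1. Its level was 489.7 and 400.1 CPM in control and 544 and 321 CPM in injury. The injury libraries lay on either side of the control libraries, with means of 445 ± 63.4 and 432 ± 157 CPM (SD, n = 2 each), and *Jun* was already detected in 25 of 25 and 169 of 187 control barcodes. The ratio of injury to control was 0.972, and the 2 injury libraries differed from each other by more than the condition means did. Within the methods' limits on cells the log2 ratio, on CPM plus 1, was 1.06. Those limits left 3 and 42 control and 3 and 17 injury barcodes.

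The upstream sequences of *Sprr1a*, *Atf3* and *Jun* are shown because *Sprr1a* is nearly absent in control neurons and separates the injury neurons, and because *Atf3* and *Jun* encode factors of the family that binds the motifs searched. RefSeq promoter windows on GRCm38 were found for 5 of the 9 genes. That of *Atf3* lies inside the gene span given above, and the upper end of that span was not searched. The 250 bases before each RefSeq start are given 5′ to 3′ on the minus strand, at chr3:92485882-92486131 for *Sprr1a*, chr1:191183334-191183583 for *Atf3* and chr4:95052223-95052472 for *Jun*, with motif matches in capitals.
Sprr1a: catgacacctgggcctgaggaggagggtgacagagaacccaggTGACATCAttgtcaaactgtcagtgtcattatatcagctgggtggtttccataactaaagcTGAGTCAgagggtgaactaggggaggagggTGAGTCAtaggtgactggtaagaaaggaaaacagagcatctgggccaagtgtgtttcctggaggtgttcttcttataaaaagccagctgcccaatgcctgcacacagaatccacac
Atf3: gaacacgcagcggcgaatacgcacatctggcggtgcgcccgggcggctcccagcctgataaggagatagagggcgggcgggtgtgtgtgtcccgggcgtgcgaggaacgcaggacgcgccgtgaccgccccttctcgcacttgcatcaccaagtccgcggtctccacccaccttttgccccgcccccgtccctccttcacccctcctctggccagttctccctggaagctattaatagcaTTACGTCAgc
Jun: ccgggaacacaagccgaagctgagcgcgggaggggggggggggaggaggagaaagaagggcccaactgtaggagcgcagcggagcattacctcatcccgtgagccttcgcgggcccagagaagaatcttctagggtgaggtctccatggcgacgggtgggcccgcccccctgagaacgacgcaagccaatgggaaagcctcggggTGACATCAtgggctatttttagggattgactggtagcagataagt
The AP-1 motif TGAGTCA, read on both strands, occurred 2 times in the *Sprr1a* window, starting 146 and 116 bases before the start, and in neither of the other windows shown. It occurred in 4.46% of the 32851 promoter windows of this length. The CRE motif TGACGTCA, found in 1.55% of all windows, was in none of the 5. TGACATCA (2.93% of windows) was found once in *Sprr1a*, *Jun* and *Sox11*, and TTACGTCA (0.447%) once in *Atf3*, from 10 bases before the start. The last 2 spellings were chosen after these sequences were seen, the 4 motifs do not overlap one another in these windows, and a match describes letters and not binding.

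Of the genes of growth and cytoskeleton, *Sprr1a* was nearly absent in control neurons and *Gap43* was found in most of them. SPRR1A, a small proline-rich protein of the epidermis, is also found in regrowing axons. *Sprr1a* had 0 UMIs in control replicate 1, which allows up to 2.74 CPM, and 1 UMI in control replicate 2, against 5810 and 3009 UMIs (3694 and 983 CPM) in injury. A single barcode held 35.8% and 33.3% of the *Sprr1a* UMIs in injury replicates 1 and 2. With 1 control UMI against 8819 injury UMIs, the ratio of the summed levels was 9715 with a 95% counting interval of 1743 to 383757, which covers counting error only. The single control UMI lay in a barcode of 3272 UMIs that also had 6 of *Serpinb1a*.

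*Gap43* was at 556 and 799 CPM in control and 2864 and 1916 CPM in injury. Both injury libraries were higher, with a ratio of the means of 3.53, and control neurons already held the transcript: 92.0% and 93.6% of control barcodes and 94.4% and 92.5% of injury barcodes had at least 1 UMI. At full depth the share was thus near its ceiling in every library. Thinned to 5000 UMIs it was 84.0% and 83.1% in control and 91.4% and 85.9% in injury, and thinned to 1000 UMIs 36.0% and 52.9% in control and 83.3% and 59.1% in injury, where both injury libraries were higher. *Kif22* encodes a kinesin known for moving chromosomes in mitosis. It was at 12.8 and 21.7 CPM in control and 332 and 236 CPM in injury, without overlap, a ratio of the means of 16.5.

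Neurons do not divide, so the cycling markers were measured beside *Kif22*. The list of *Mki67*, *Top2a*, *Cdk1*, *Ccnb1* and *Birc5* summed to 5.48 and 10.7 CPM in control neurons and 24.2 and 11.4 CPM in injury neurons, with *Cdk1* at 0 and 18 UMIs in control and 30 and 8 in injury. Of 4 other mitotic kinesins, *Kif11*, *Kif20a*, *Kif23* and *Kif4*, none had more than 6 UMIs in the neuron-like barcodes of any library, against 522 and 721 UMIs of *Kif22* in injury. In injury replicate 2 the cycling list was close to its level in control replicate 2 while *Kif22* was high. In injury replicate 1, where the *Kif22* level was highest (332 CPM), the cycling list was highest as well (24.2 CPM). That level rested mostly on 1 gene, since *Cdk1* gave 30 of the list's 38 UMIs there. It gave 0 of 6 and 18 of 43 in control and 8 of 35 in injury replicate 2. The part of dividing cells in the *Kif22* level was not tested.

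The membrane proteins had very low levels in control. GPR151 is an orphan G protein coupled receptor and SEMA6A a transmembrane semaphorin that guides axons. *Gpr151* had 1 and 2 UMIs in control and 59 and 117 in injury, where the level was nearly equal in both libraries (37.5 and 38.2 CPM). A single barcode held 32.2% and 11.1% of these injury UMIs, and 44.4% and 22.6% of injury barcodes had a UMI. The ratio of the summed levels was 64.6, with a 95% counting interval of 21.8 to 316. This interval covers counting error only and not the spread between barcodes or libraries. *Sema6a* rested on 3 and 10 control UMIs (2.74 and 2.49 CPM) against 86.5 and 54.9 CPM in injury, a ratio of the means of 27.0.

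*Serpinb1a* was at 6.40 and 14.5 CPM in control and 551 and 305 CPM in injury, a ratio of the means of 41.0 without overlap. Single barcodes weighed heavily here: 1 barcode held 24 of the 58 UMIs in control replicate 2, and 1 barcode held 41.3% and 47.0% of the UMIs in injury replicates 1 and 2. Because neutrophils also express this gene, their markers were measured in the same barcodes. The 6 neutrophil markers summed to 114 and 37.2 CPM in control neurons and 16.5 and 154 CPM in injury neurons, and the 2 injury barcodes with the most *Serpinb1a* (358 and 438 UMIs) had 1 and 13 neutrophil marker UMIs. By library the neutrophil markers were lowest in injury replicate 1, where *Serpinb1a* was highest. Within each library they were higher in barcodes with *Serpinb1a* than in those without, at 148 against 111 and 53.2 against 34.2 CPM in control and at 18.3 against 11.7 and 170.4 against 133 CPM in injury. Their part in the *Serpinb1a* level was not tested.

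**Figure D1:**
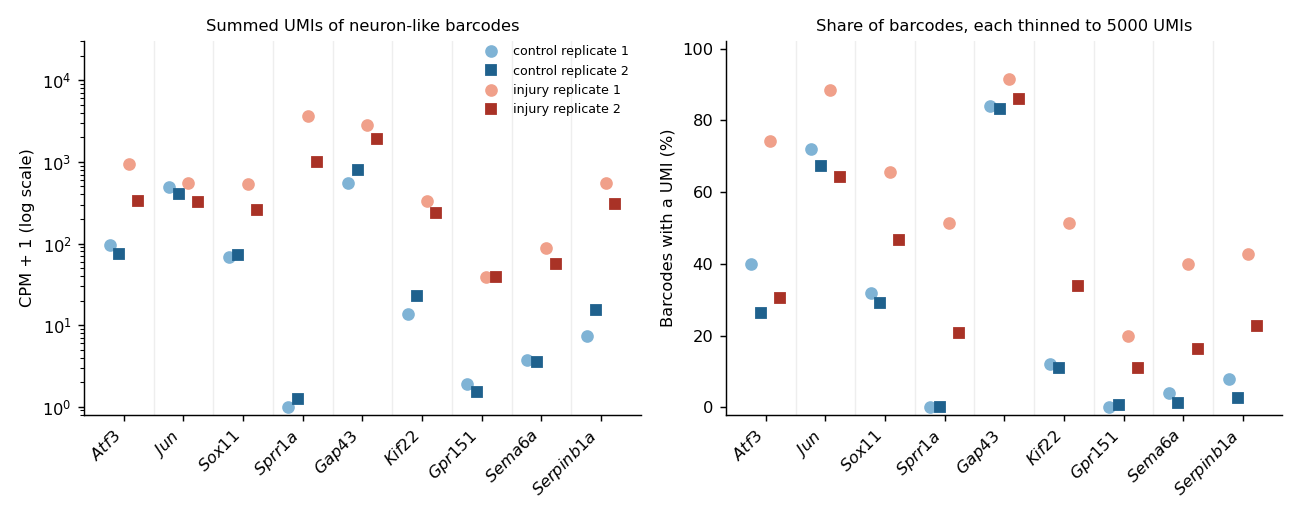
Levels of the 9 genes in neuron-like barcodes of the 4 libraries (25, 187, 36 and 93 barcodes), as CPM plus 1 of the summed UMIs on a log axis (left) and as the percent of barcodes with at least 1 UMI after each was thinned to 5000 UMIs (right). Each point is 1 library. On the left the injury points lie above the control points for 8 genes and on either side of them for *Jun*. On the right *Atf3* in injury replicate 2 (30.4%) lies between the control libraries (40.0% and 26.2%).

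Counted over the set, 8 of 9 genes had both injury libraries above both control libraries, against 14.7% of the 10575 genes tested in neuron-like barcodes. With a limit of 0.05 on the Benjamini-Hochberg adjusted p and of 2 on the absolute log2 fold change, edgeR's quasi-likelihood test on the summed UMIs called 5 of the 9 genes, *Sprr1a*, *Gpr151*, *Serpinb1a*, *Sema6a* and *Kif22*, against 0.0473% of all genes tested, which are these same 5. No gene was called lower by edgeR, 447 genes being lower at an unadjusted p under 0.05 and 5 called lower by DESeq2. Nothing can be read from these shares about the set, since this contrast was used to choose it. The number of genes called higher rested on single libraries: without control replicate 1 it was 0, without control replicate 2 it was 10, and without injury replicates 1 and 2 it was 23 and 150. It was 0 under a stricter neuron gate.

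Levels and shares of barcodes were not the same measure. At a common depth of 5000 UMIs, *Sprr1a* was detected in 0 of 25 and 0 of 183 control barcodes, which allows up to 12.0% and 1.64% of barcodes with a UMI at this depth and sets no limit on cells that express the gene, and in 18 of 35 and 19 of 92 injury barcodes. *Kif22* was detected in 12.0% and 10.9% of control barcodes and in 51.4% and 33.7% of injury barcodes at that depth. *Atf3* was detected in 40.0% and 26.2% of control and 74.3% and 30.4% of injury barcodes, so that its share overlapped between conditions although its level did not. At all UMIs the share with *Atf3* was 84.0% and 41.7% in control and 91.7% and 46.2% in injury, and followed the replicate number. As a background, 2.97% and 1.64% of satellite glial barcodes in injury replicates 1 and 2 had a *Sprr1a* UMI at median depths of 3007.5 and 4918 UMIs, and at a common depth of 1000 UMIs the shares were 0.567% and 0.548% in satellite glial and 38.9% and 17.2% in neuron-like barcodes.

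Within the injury libraries some of the barcodes held UMIs of many genes of the set. At 5000 UMIs a control barcode had a UMI of at most 5 of the 9 genes, with a median of 2 in both control libraries. In injury replicate 1 the median was 6 genes and 20 of 35 barcodes (57.1%) had 6 or more. In injury replicate 2 the median was 2.5, close to control, while 20 of 92 barcodes (21.7%) had 6 or more. None of the 25 and 183 control barcodes had 6 or more. At this depth *Sprr1a*, *Gpr151*, *Sema6a* and *Serpinb1a* were each found in at most 8% of control barcodes, so few could reach 6. Levels in these neurons had helped to choose the genes, so this contrast is no evidence about the set. Whether genes met in the same barcodes more often than their single shares give was not tested. The limit of 6 was set after the distribution was seen.

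**Figure D2:**
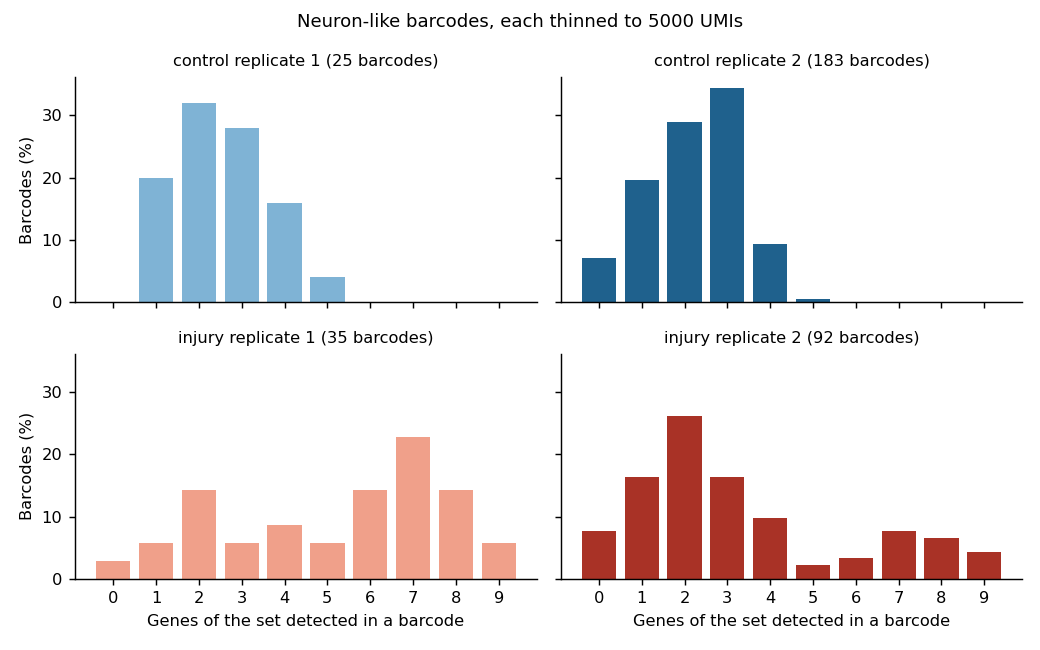
Number of the 9 genes detected in each neuron-like barcode after thinning to 5000 UMIs, as the percent of barcodes in each library. Control barcodes reach at most 5 genes, and both injury libraries hold barcodes with 6 to 9, which are 57.1% of barcodes in injury replicate 1 and 21.7% in injury replicate 2.

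*Sprr1a*, chosen for this after its values were seen, separated these barcodes. A *Sprr1a* UMI was found in 22 of 36 neuron-like barcodes (61.1%, 95% exact interval 43.5% to 76.9%) of injury replicate 1 and in 24 of 93 (25.8%, 17.3% to 35.9%) of injury replicate 2. The median depth of barcodes with and without *Sprr1a* was 30361.5 and 30836 UMIs in injury replicate 1 and 41230.5 and 21383 UMIs in injury replicate 2, so the other genes were compared at 5000 UMIs.

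*Atf3* was detected in 95.2% and 87.5% of the barcodes with *Sprr1a* (injury replicates 1 and 2) and in 42.9% and 10.3% of those without. Its level at this depth was 1190 and 875 CPM with *Sprr1a*. In barcodes of injury replicate 2 without *Sprr1a* it was 35.3 CPM, below both control libraries at the same depth (120 and 90.7 CPM), whereas in those of injury replicate 1 it was 286 CPM, above them. *Gap43* was at 3676 and 4333 CPM with *Sprr1a* and at 1171 and 976 CPM without, the latter nearer to the 856 and 828 CPM of control. *Kif22* was at 505 and 733 CPM with and at 71.4 and 47.1 CPM without, and *Sox11* at 648 and 575 CPM with and at 171 and 129 CPM without.

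*Gpr151*, *Sema6a* and *Serpinb1a* showed the same split. *Gpr151* was detected at 5000 UMIs in 28.6% and 37.5% of barcodes with *Sprr1a* and in 7.14% and 1.47% without, and *Sema6a* in 61.9% and 50.0% with and in 7.14% and 4.41% without. *Serpinb1a* was found in 57.1% and 66.7% with and in 21.4% and 7.35% without. *Jun* split by the smallest ratio of levels: 790 and 625 CPM with *Sprr1a* and 443 and 294 CPM without, beside 640 and 420 CPM in control at that depth. In both injury libraries *Jun* was thus lower without *Sprr1a* than with it, and its level without *Sprr1a* lay between the control libraries in injury replicate 1 and below both in injury replicate 2. Barcodes of 1 library are not replicates, and these differences are descriptions.

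**Figure D3:**
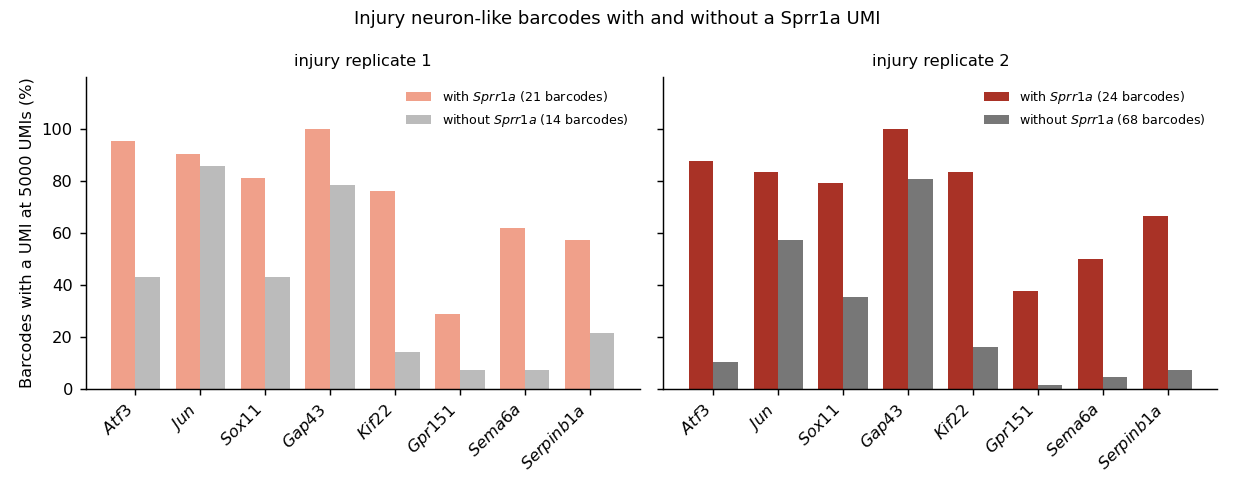
Percent of neuron-like barcodes with a UMI of each other gene after thinning to 5000 UMIs, for injury barcodes with (coloured) and without (grey) any *Sprr1a* UMI, in injury replicate 1 (21 and 14 barcodes) and injury replicate 2 (24 and 68 barcodes). All 8 bars with *Sprr1a* are higher in both libraries, by the most for *Kif22* in injury replicate 1 and *Atf3* in injury replicate 2.

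Neuron classes were assigned by the largest share of detected class markers, which puts most barcodes of every library in the peptidergic class (69.4% to 80.0%). In that class *Sprr1a* was found in 13 of 25 and 17 of 66 injury barcodes and in 0 of 20 and 1 of 140 control barcodes. In the large myelinated class, whose neurons sense touch and limb position, it was found in 4 of 5 and 5 of 11 injury barcodes and in 0 of 1 and 0 of 11 control barcodes. *Atf3* was found in 22 of 25 and 33 of 66 peptidergic and in 5 of 5 and 8 of 11 large myelinated injury barcodes. In control it was found in 16 of 20 and 69 of 140 peptidergic and in 1 of 1 and 1 of 11 large myelinated barcodes. The peptidergic share with *Atf3* was thus 80.0% and 49.3% in control, close to 88.0% and 50.0% in injury. These shares used all UMIs, at median depths of 33278.5 and 18313.5 UMIs in control and 25580 and 28019 in injury. Neither *Sprr1a* nor *Atf3* had a UMI in the 5 low-threshold C barcodes of injury replicate 2, numbers too small to tell classes apart. *Jun* reached 759 and 538 CPM in peptidergic control barcodes and 587 and 373 CPM in peptidergic injury barcodes. Among barcodes assigned to this class it was thus not higher after injury. The class markers differed between libraries too. In neurons the peptidergic list summed to 6903 and 5250 CPM in control and 2227 and 5694 CPM in injury. The large myelinated list summed to 217 and 332 CPM in control and 601 and 738 CPM in injury. Whether class assignment changed with injury was not tested.

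The genes most like each member over the 92 neuron-like barcodes of injury replicate 2, at 5000 UMIs and among 3324 genes, were often other members. *Atf3* was most like *Sprr1a* (Pearson's r = 0.83 on log2 values, 0.57 over the 35 barcodes of injury replicate 1), *Flrt3* (0.75 and 0.67) and *Kif22* (0.75 and 0.37). *Sprr1a* followed *Atf3*, *Kif22* (0.70 and 0.59) and *Gadd45a* (0.69 and 0.60), and *Kif22* followed *Atf3*, *Gadd45a* (0.70 and 0.35) and *Sprr1a*. *Serpinb1a* was most like *Sprr1a* (0.67 and 0.43), *Atf3* (0.66 and 0.34) and *Stmn2* (0.51 and 0.41).

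*Sox11* and *Gap43* were both most like *Atf3*, at 0.62 and 0.65 for *Sox11* and 0.58 and 0.54 for *Gap43*. *Gap43* was next most like *Gadd45g* (0.57 and 0.49) and *Gal* (0.57 and 0.61). For *Sox11* the next gene, *Arrb1*, did not hold in the other library (0.57 and −0.04), and *Kif22* did (0.57 and 0.43). *Jun* was most like *Gadd45g* (0.58 and 0.52), *Gap43* (0.51 and 0.34) and *Syt4* (0.47 and 0.21), with *Atf3* not among these. *Gpr151* and *Sema6a* were found in fewer than 20% of these barcodes and were not ranked. The barcodes of a correlation share their library and depth, and the values are descriptions.

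Other genes of the regeneration programme were taken from a list of 47, of which 46 were in the tables and 41 were tested in neuron-like barcodes. The list was chosen with earlier results of these data known and is not independent of them. None passed the threshold (edgeR quasi-likelihood, Benjamini-Hochberg). At an unadjusted p under 0.05, 20 were higher and 0 lower, against 596 higher and 447 lower of all 10575 genes, and DESeq2 called 11. Both injury libraries lay above both control libraries for 25 of the 41 (61.0%), against 14.7% of all genes tested, and the median log2 fold change was 0.86, also with *Cckbr* (0 UMIs in control) at its bound, against -0.03. The number called by edgeR was 0 without control replicate 1, 1 without control replicate 2, and 7 and 16 without injury replicates 1 and 2.

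The 10 largest differences among the lists were all positive and of this list. The neuropeptide gene *Nts* was at 0 and 1.00 CPM in control and 392 and 139 CPM in injury (log2 fold change 8.53 ± 0.88 SE, adjusted p = 0.063 by edgeR). *Gal*, which encodes the neuropeptide galanin, was at 571 and 498 CPM in control and 7590 and 2526 CPM in injury (log2 fold change 3.42 ± 0.57, edgeR adjusted p = 0.156). *Cckbr*, a receptor of cholecystokinin, had no UMI in control and 18.4 and 8.50 CPM in injury, and *Ecel1*, an endopeptidase-like protein of injured neurons, was at 0.91 and 0 CPM in control and 61.0 and 16.7 CPM in injury. For each of these genes both injury libraries were higher, and injury replicate 1 was higher than injury replicate 2.

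The same held for the other 6. The tubulin *Tubb6* went from 5.48 and 2.00 to 210 and 55.6 CPM, *Gadd45a*, of the stress response, from 59.4 and 51.6 to 802 and 285 CPM, and *Flrt3*, an adhesion protein, from 19.2 and 22.0 to 250 and 125 CPM. The cytokine *Csf1* went from 3.65 and 4.99 to 49.6 and 25.8 CPM, the laminin receptor subunit *Itga7* from 25.6 and 16.5 to 210 and 110 CPM, and the urokinase receptor *Plaur* from 9.14 and 2.25 to 51.5 and 15.4 CPM. Their edgeR adjusted p-values lay between 0.110 and 0.364, all above the threshold.

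The kinases and relatives of *Jun* did not pass the threshold either. All 9 tested genes of the JNK pathway had log2 fold changes below 0, between -0.60 and -0.03, and 7 of them had both injury libraries below both control libraries, where 32.3% of all genes tested did. Such counts used CPM without the scaling factors of the edgeR fit. On CPM 14.7% of all genes lay above, while their median fitted log2 fold change was -0.03. Neither edgeR nor DESeq2 called any of the JNK pathway genes (0 of 9), and 0 of these had an unadjusted p under 0.05. Of 5 tested relatives of *Jun* and *Atf3*, 3 had both injury libraries lower and 1, *Fosl2*, both higher (log2 fold change 1.22 ± 0.57), named here after its value was seen. The 2 plexin receptors of SEMA6A differed in sign, *Plxna2* at -0.77 ± 0.27 and *Plxna4* at 0.88 ± 0.33, with edgeR adjusted p-values of 0.452 and 0.462. Of 5 tested relatives of the other members, edgeR called 0. In 1 of them, *Sox4*, both injury libraries lay below both control libraries, at 132 and 183 CPM in control and 68.0 and 129 CPM in injury. Its log2 fold change was -0.54 ± 0.32, and it is named after its value was seen. Some near copies had few UMIs. *Sprr1b* had 1 UMI and *Serpinb1c* 1 UMI in all neuron-like barcodes. *Serpinb1b* had 4, 43, 15 and 30 UMIs in the order of the 4 libraries, although reads of such near copies can be counted for one another. The same holds for *Jun* and its antisense neighbour *Junos* if counting ignored strand.

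Outside neurons the 9 genes fell into 3 patterns. All 4 libraries together, neuron-like barcodes held 26.0% of all UMIs. They held 96.0% of the *Sprr1a* UMIs, 93.7% of *Gpr151*, 93.4% of *Gap43*, 93.3% of *Sox11* and 79.7% of *Kif22*. They held 56.0% of the *Serpinb1a* and 42.6% of the *Sema6a* UMIs, and only 23.1% of *Atf3* and 7.17% of *Jun*. The other cells were gated on fixed marker lists (at least 3 detected markers and the largest share of the list), and 8 types had at least 10 barcodes in every library. A type gated on *Ly6c2*, *Ccr2*, *Chil3* and *Plac8* is called Ly6c2/Plac8. It is named by genes of its gate because its leading genes also include *Ctsg*, *Prtn3*, *Elane* and *Mpo* of granulocyte precursors.

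**Figure D4:**
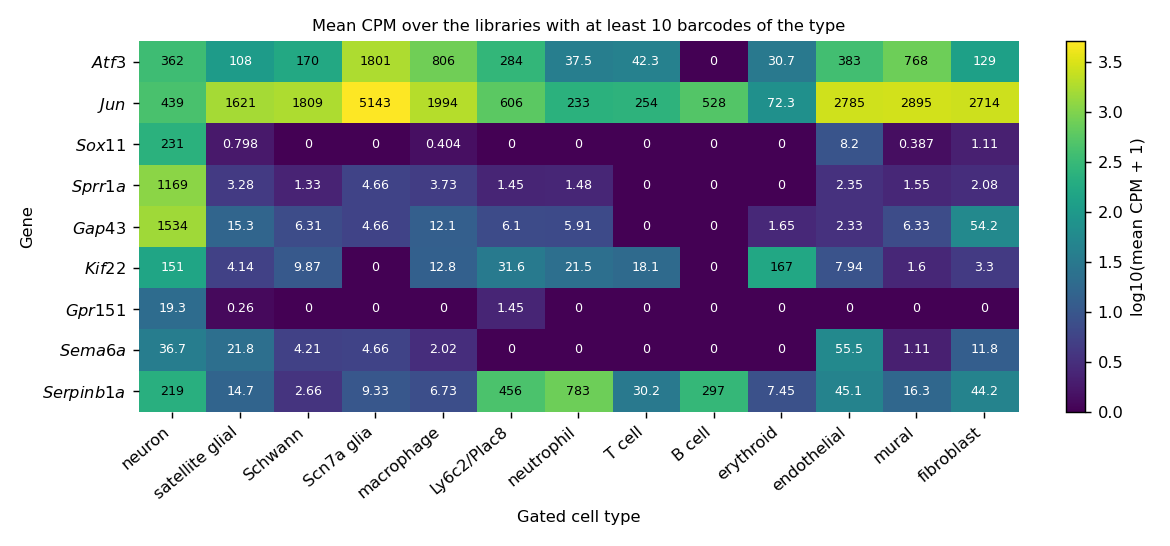
Mean CPM of the 9 genes in each gated cell type over the libraries with at least 10 barcodes of that type (4 libraries for neurons and the 8 types tested, fewer for Scn7a glia, T cells, B cells and erythroid cells), coloured by log10(mean CPM + 1). *Sprr1a*, *Gap43*, *Sox11* and *Gpr151* are highest in neurons, *Serpinb1a* in neutrophils (783 CPM), *Sema6a* in endothelial barcodes (55.5 CPM), *Kif22* in erythroid barcodes (167 CPM), and *Jun* and *Atf3* in Scn7a glia (5143 and 1801 CPM). These means pool control and injury: in injury alone the neuron mean was above the erythroid mean for *Kif22* (284 and 170.2 CPM) and above the endothelial mean for *Sema6a* (70.7 and 51.4 CPM). The means of Scn7a glia hold replicate 1 only (26 control and 58 injury barcodes, against 1 and 1 in replicate 2). Within control replicate 1, *Atf3* was at 2249 CPM in Scn7a glia and 1636 CPM in macrophages. Within injury replicate 1 it was lower in Scn7a glia (1352 CPM) than in mural barcodes (1534 CPM).

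Of the neurons and the 8 types tested, *Serpinb1a* was highest in neutrophils, at 932 and 834 CPM in control and 602 and 762 CPM in injury, followed by the Ly6c2/Plac8 barcodes at 137 and 542 CPM in control and 218 and 927 CPM in injury, whose ranges overlap. Injury neurons, at 551 and 305 CPM, lay below neutrophils and within the range of the Ly6c2/Plac8 barcodes, and fibroblasts (33.8 to 51.3 CPM) and endothelial barcodes (29.0 to 60.4 CPM) followed far below. In neutrophils the log2 fold change was -0.52 ± 0.58 (SE, edgeR adjusted p = 1.00), and both injury libraries were lower than both control libraries, as were 6.7% of the genes tested there.

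*Sema6a* was at 64.7 and 54.6 CPM in control and 44.8 and 58.0 CPM in injury endothelial barcodes, with overlap between conditions. The endothelial level lay above that of control neurons (2.74 and 2.49 CPM), and that of injury neurons (86.5 and 54.9 CPM) overlapped with it. Satellite glia were next, at 15.4 and 28.8 CPM in control and 13.8 and 29.2 CPM in injury, where the replicate number and not the condition ordered the values. *Gap43* was found in fibroblasts at 35.6 and 71.3 CPM in control and 13.6 and 96.3 CPM in injury, again with higher values in both libraries of replicate 2.

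Among the types besides neurons, *Kif22* was highest in erythroid barcodes, which include dividing precursors: 161, 212 and 129 CPM in control replicate 2 and injury replicates 1 and 2 (10, 13 and 32 barcodes), beside 1655, 1931 and 2313 CPM of the cycling list. In macrophages *Kif22* had 3 and 1 UMIs in control and 33 and 37 UMIs in injury (3.29, 3.39, 12.4 and 32.0 CPM). Both injury libraries were higher there, as were 27.2% of the genes tested in macrophages, and the cycling list was at 65.8 and 94.8 CPM in control and 339 and 377 CPM in injury. The log2 fold change was 2.47 ± 0.73 (SE), with an edgeR adjusted p of 0.522. The part of dividing macrophages in this difference was not tested.

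*Sprr1a* was almost absent outside neurons. In the injury libraries it reached at most 9.33 CPM in any gated type besides neurons with 10 or more barcodes (1 UMI in Scn7a glia), with 22 and 9 UMIs in satellite glia (8.42 and 4.69 CPM), 19 and 9 in macrophages (7.13 and 7.79 CPM) and 8 and 4 in fibroblasts (5.20 and 2.57 CPM). These types thus had like low levels, and the 22 UMIs in satellite glia of injury replicate 1 were spread over 21 barcodes. In satellite glia the control libraries had 0 UMIs, so the summed injury level was at least 7.96-fold higher than a floor of 3 UMIs over the control group, with an edgeR adjusted p of 1.00. The part of free RNA from neurons was not tested. A further 278 UMIs lay in 10 ungated barcodes of injury replicate 1, of which 268 UMIs were in 3 barcodes that had at least 10 UMIs of *Snap25*, *Stmn2* and *Tubb3* and no *Isl1*, just outside the neuron gate.

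*Jun* and *Atf3* were abundant in cells other than neurons, in both conditions. In fibroblasts *Jun* was at 5352 and 1237 CPM in control and 2807 and 1461 CPM in injury, and in satellite glia at 3205 and 586 CPM in control and 1795 and 897 CPM in injury. In macrophages it was at 4211 and 1304 CPM in control and 1547 and 914 CPM in injury (log2 fold change -1.30 ± 0.63, edgeR adjusted p = 0.701). In each of these types the conditions overlapped, and replicate 1 was higher than replicate 2 in control and in injury.

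*Atf3* was at 1636 and 434 CPM in control and 891 and 262 CPM in injury macrophages, with a log2 fold change of -0.97 ± 0.80 and an edgeR adjusted p of 0.845, and the log2 fold change was 0.43 without control replicate 1. In mural barcodes, the pericytes and smooth muscle of vessels, it was at 942 and 333 CPM in control and 1534 and 262 CPM in injury. *Atf3* was higher in replicate 1 than in replicate 2 in both conditions in 8 of the 8 types tested, and *Jun* in 7 of 8. A list of 11 early response genes was ordered this way in both conditions in 6 of 8 types, for example at 9132 and 1961 CPM in control and 4724 and 2219 CPM in injury satellite glia. In neurons this list was low, at 854 and 582 CPM in control and 521 and 484 CPM in injury. Neurons had the same order of replicates in both conditions for *Atf3*, *Jun* and this list.

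**Figure D5:**
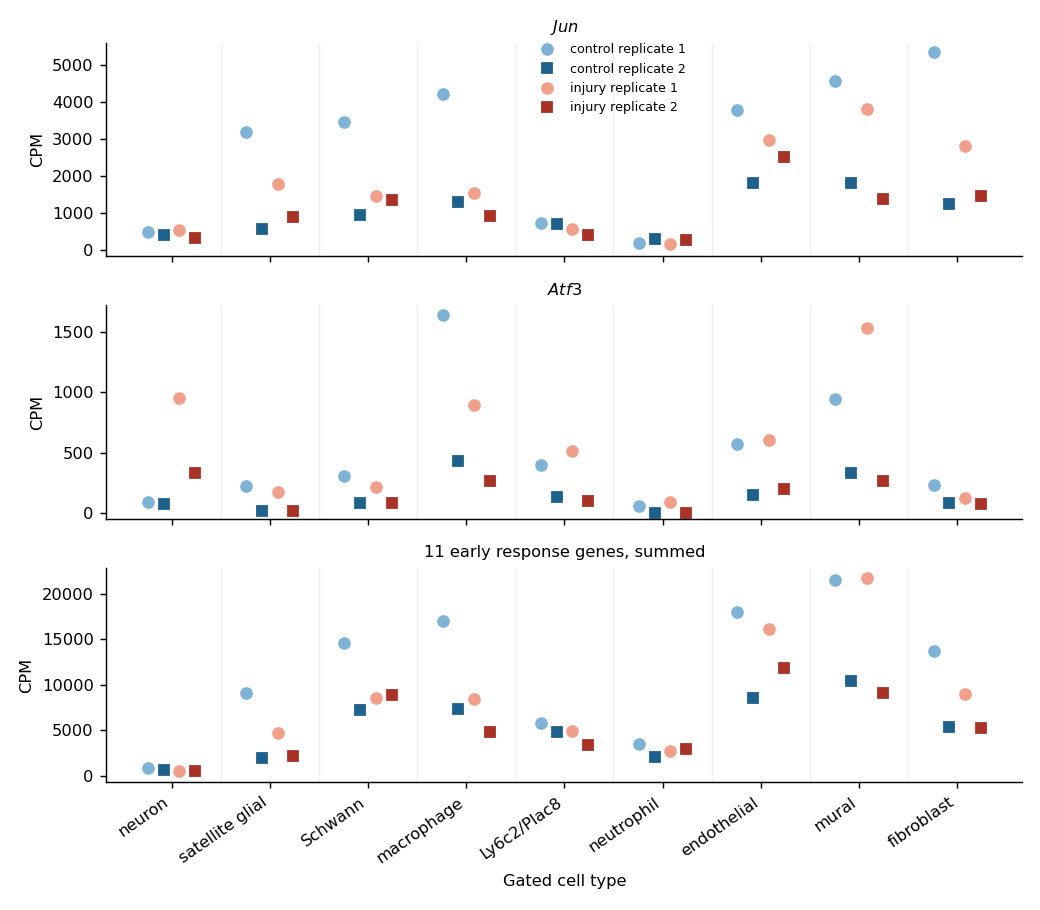
CPM of *Jun* (top), *Atf3* (middle) and 11 early response genes summed (bottom) in neurons and the 8 other types tested, 1 point per library. In neurons circles (replicate 1) lie above squares (replicate 2) of the same condition in every panel, and outside neurons they do so in most types. For *Atf3* neurons are the one type in which both injury points lie above both control points.

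Across the 8 types, 29 pairs of a member and a type passed the filter on low counts, and *Sox11* and *Gpr151* passed it in none. In the edgeR quasi-likelihood test (Benjamini-Hochberg) none of the 29 was called, nor any of the 43640 tests of these types (0%). An unadjusted p under 0.05 was reached by 3 of the 29, *Kif22* in macrophages, *Sprr1a* in satellite glia and *Serpinb1a* in satellite glia, and by 2.55% of all tests, and DESeq2 called none of the 29 and 26 of all. Of the 29 pairs, 4 had both injury libraries higher and 2 had both lower. *Serpinb1a* in satellite glia was at 15.4 and 4.64 CPM in control and 19.5 and 19.3 CPM in injury (log2 fold change 1.70 ± 0.50, edgeR adjusted p = 1.00), and both injury libraries were higher, as for 10.3% of the genes tested there. *Kif22* in satellite glia was also higher in both, at 0 and 3.40 CPM in control and 6.89 and 6.25 CPM in injury (log2 fold change 1.14 ± 0.64). *Jun* in the Ly6c2/Plac8 barcodes was the one pair besides *Serpinb1a* in neutrophils with both injury libraries lower (732 and 719 CPM in control, 569 and 406 CPM in injury), as for 11% of the genes tested there.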

How the data were processed

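Mouse DRG cells were measured by droplet single cell RNA-seq in 4 libraries, 2 per condition. Raw UMI counts per gene and barcode were deposited by the authors, and the submitters' processing notes name Cell Ranger, mm10 and Partek. The 9 genes and the gene lists were chosen with earlier results of these data known. Groups followed the titles and source names. Only replicate number 2 stands in the labels, once per condition, replicate 1 follows accession order, and p-values measure the spread between libraries, each made from pooled cells.

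Barcodes were gated on fixed markers, UMIs were summed per library and type, and the sums were tested with edgeR 4.0.16 (quasi-likelihood, TMM, filterByExpr, Benjamini-Hochberg) in R 4.3.3. A call needed an adjusted p under 0.05 and an absolute log2 fold change of 2. Types with at least 10 barcodes in every library were tested. Shares used barcodes thinned to 5000 or 1000 UMIs (numpy 2.4.6). Intervals are exact at 95%, a count of 0 was read as up to 3 counts, and both cover counting error only. Counts of 10423 genes were simulated for the neuron comparison with a common dispersion of 0.0634. In these counts 99% of 200 genes changed 8-fold were recovered and 0 unchanged genes were called. The changed genes were drawn from those with at least 200 UMIs, and every gene had the same dispersion. The result does not cover genes with fewer UMIs, such as *Gpr151* (179), or with a wider spread between libraries. The share recovered in the measured counts was not tested. There edgeR called 5 genes in neuron-like barcodes, and *Nts*, *Gal* and *Gadd45a* (log2 fold changes 8.53, 3.42 and 3.47) were not among them. Named list genes were the 10 with the largest absolute log2 fold change over the lists. DESeq2 1.42.0, no filter on low counts, a replicate block, other gates, thinning and leaving out each library were alternatives.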

Additional observations from a re-analysis of the deposited data

Results flagged for a closer look

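*Serpinb1a* was lower in both injury libraries than in both control libraries in neutrophils, as were 6.7% of the genes tested there. It was higher in both in neuron-like barcodes, as were 14.7% of the genes tested in those. The neutrophil difference was not called by edgeR and was smaller than its SE. The log2 fold change in neutrophils was -0.52 ± 0.58 (SE), from 932 and 834 CPM in control to 602 and 762 CPM in injury, while neuron-like barcodes went from 6.40 and 14.5 CPM to 551 and 305 CPM. The difference between the cell types was not tested, and the neuron values were among those that chose the gene.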

How the results depend on the processing

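In neuron-like barcodes the 5 genes called higher and 0 called lower by edgeR became 188 and 23 with no filter on low counts, 87 and 5 with DESeq2, 65 and 1 with a replicate block, 33 and 1 in barcodes low in satellite glial RNA, 0 and 0 under a stricter gate, 1 and 0 with *Isl1* left out of the gate (an alternative chosen after the data were seen), and 0 to 150 and 0 to 67 with a library left out. Of the regeneration-associated list, where 0 were called, 13 were called with no filter, 11 with DESeq2, 11 with the replicate block, 7 in barcodes low in satellite glial RNA and 0 to 16 with a library left out. In the other types 0 genes were called higher and 0 lower, against 111 and 114 with no filter, 29 and 9 with the replicate block, 12 and 14 with DESeq2, and 21 to 62 and 14 to 73 with a library left out. Of the 29 pairs of a member and a type, 2 were called with no filter, *Kif22* in macrophages and *Sprr1a* in satellite glia, 1 with the replicate block, *Sprr1a* in satellite glia, and 0 to 1 with a library left out. The paper counts 2 independent biological experiments, and the labels do not say whether libraries of the same number belong to 1 of them. The main fit did not pair libraries by number. The cause of these changes was not tested.

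*Atf3* in macrophages (log2 fold change -0.97) ranged from -2.26 without injury replicate 1 to 0.43 without control replicate 1. The median log2 ratio of the 9 genes in neuron-like barcodes, on CPM plus 1, was 3.96. It was 3.27 and 3.08 after thinning to 5000 and 1000 UMIs, 2.97 within the methods' limits on cells, and 3.65 to 4.26 with a library left out. Of the members' log2 ratios in the alternatives, 81 moved by less than the spread between replicates and 27 by more. *Jun* ranged from -0.47 without injury replicate 1 to 1.06 within the methods' limits on cells. The fit in neuron-like barcodes within the methods' limits on cells was not run, since 3 barcodes were left in control replicate 1 and in injury replicate 1. Genes with few UMIs in control (*Sprr1a*, *Gpr151*, *Sema6a*) limit the precision of their ratios.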
